A study of Mus musculus with 28 samples.

Results

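The comparison described here sets lungs after a single co-exposure to carbon black and ozone against lungs after sham air, across all genes. It rests on 8 of the 28 libraries of the series, 4 from co-exposed and 4 from sham-exposed lungs, chosen by their labels alone. Every library came from whole lung homogenate of male wild-type C57BL/6 mice, an inbred strain, labelled as 8 to 12 weeks old. Co-exposed mice breathed carbon black, a powder of nearly pure carbon, at 10 mg/m3 together with ozone, an oxidant gas, at 2 ppm for 3 hours. Sham mice breathed air. Lungs after 1 exposure to ozone alone (4 libraries), after carbon black alone (4 libraries), and after 4 co-exposures or 4 sham exposures (3 libraries each) serve as further references. How long after exposure the lungs were taken was not stated, nor whether each library is a separate mouse, so a p-value reflects only the variation from library to library, which may be technical.

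Inhaled ozone is used up in the thin fluid that lines the airways and alveoli, where it oxidises lipids and proteins and injures ciliated, club and alveolar type 1 cells. Lung cells answer oxidants through NRF2, a transcription factor that turns on genes for glutathione and quinone metabolism, and through AP-1, a family of FOS and JUN dimers. Repair of the alveolus passes through type 2 cells that divide and take on a flattened, keratin-rich transitional state. A homogenate averages over every cell of the lung, so that fewer cells of a type and less RNA per cell cannot be told apart.

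The 4 co-exposure libraries held 6638376 to 7614049 estimated counts and the 4 sham libraries 6752269 to 8219120. Levels below are in CPM, a gene's count relative to the scaled total of its library, and are not adjusted for gene length. The lung markers Sftpc, Sftpb, Ager, Scgb1a1, Cyp2f2, Pecam1 and Marco were detected in all 8 libraries. Sham library 2 stood apart from the other sham libraries. Its log2 values correlated with theirs at 0.950 to 0.955, against 0.979 to 0.981 among the other 3, and the first principal component, which took 39.5% of the variance, placed it at -64.2, against 21.4 to 42.4 for co-exposure and -22.5 to -11.6 for the other sham libraries. The 12 skeletal muscle markers summed to 38.2 to 47.3 CPM in co-exposure libraries, against 2325 CPM in sham library 2 and 51.3 to 54.8 CPM in the other sham libraries. The 10 fat markers summed to 40.9 to 84.7 CPM in co-exposure libraries, against 883 CPM in sham library 2 and 142 to 185 CPM in the others.

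**Figure D1:**
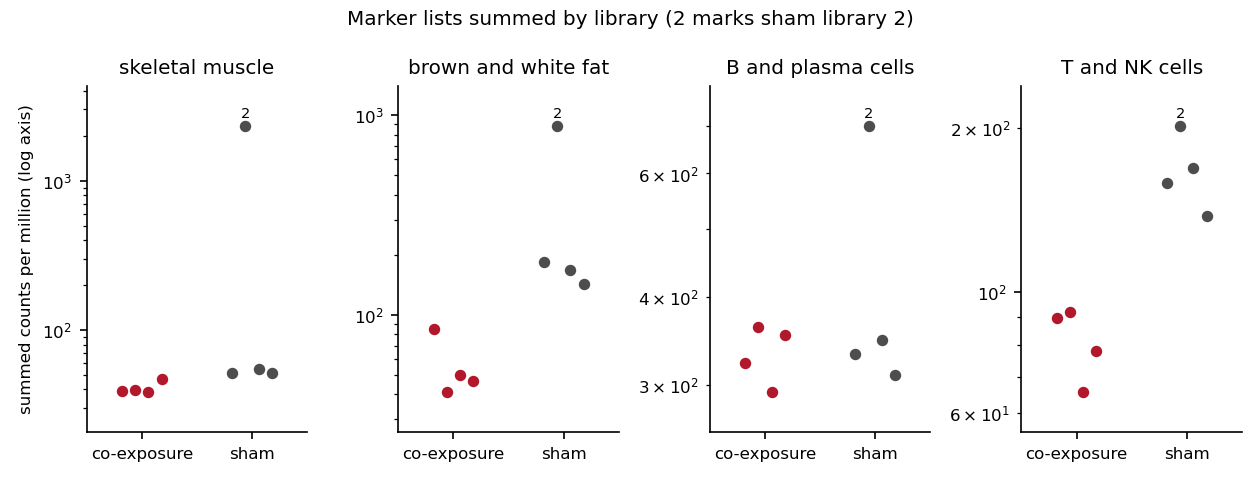
Summed CPM (log axes) of marker lists for skeletal muscle, brown and white fat, B and plasma cells, and T and NK cells in each of the 4 co-exposure and 4 sham libraries; each point is a library. Sham library 2 is highest in every panel, at 2325 CPM for muscle and 883 CPM for fat, and the groups overlap for B and plasma cells but not for the other 3 lists.

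Co-exposure was followed by both higher and lower levels of many genes. Of 14887 genes tested, 2854 passed an adjusted p of 0.05 (19.2%), 1501 of them higher in co-exposed lungs (10.1%) and 1353 lower (9.09%). Most differences were below a doubling, with a median size among the genes called of 0.54 on the log2 scale, and 302 genes were higher and 295 lower by at least 1 log2 unit (2.03% and 1.98% of those tested). The lowest library of the higher group stood above the highest of the other for 3334 genes (22.4%). Without sham library 2, 2075 genes passed, 1165 higher and 910 lower, of which 2021 were among the 2854. Without co-exposure library 3, in which 99.2% of the higher genes exceeded every sham library, 1771 passed. Lists of genes for pathways and cell types are described by how many tested members passed in each direction and by the median log2 difference of all tested members, beside a median of 0.00 over all genes.

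**Figure D2:**
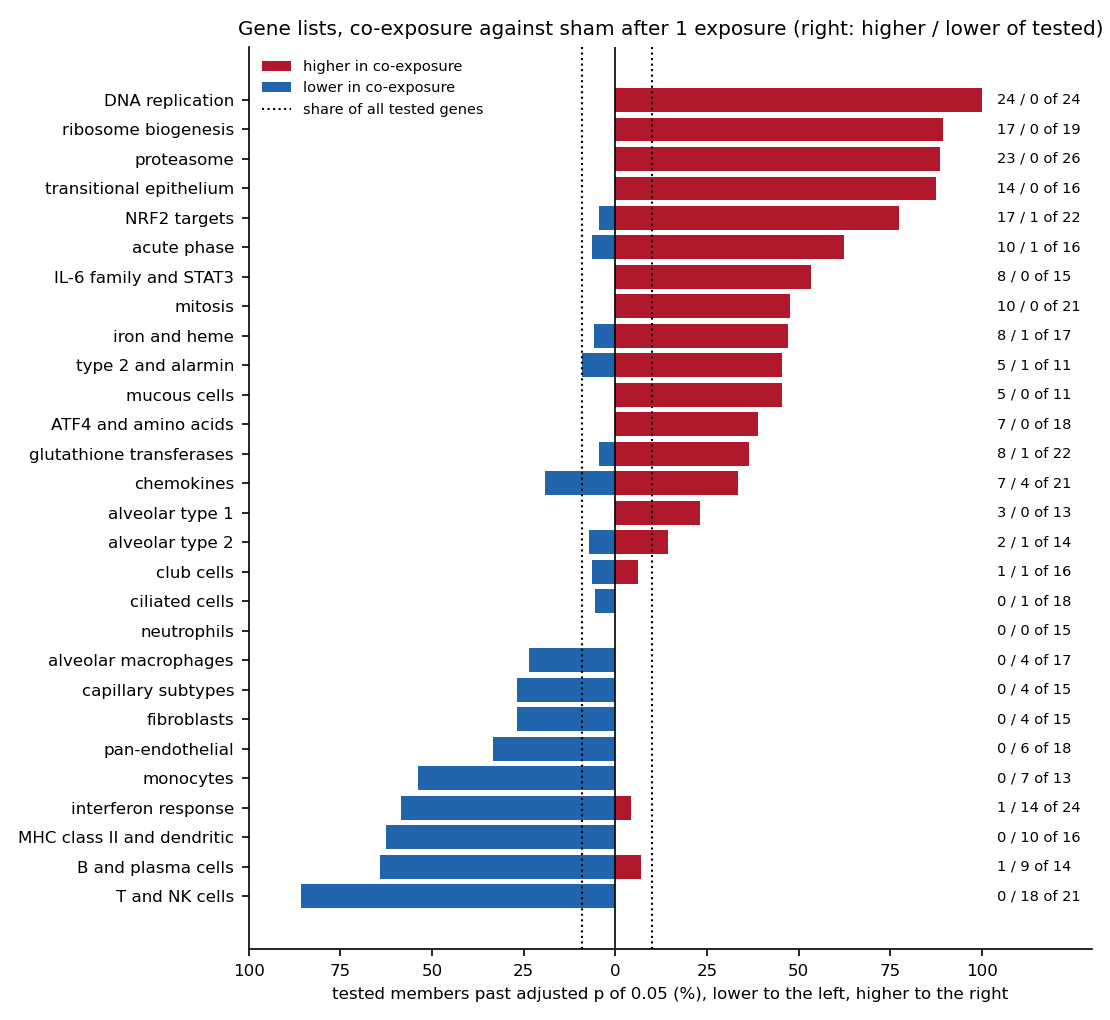
Share of the tested members of 28 gene lists that passed an adjusted p of 0.05, higher in co-exposure to the right and lower to the left, with counts at the right edge and dotted lines at the shares of all genes (10.1% and 9.09%). DNA replication, ribosome biogenesis, proteasome and transitional epithelium lists lie furthest to the right, and T and NK cell, B cell, MHC class II and interferon lists furthest to the left.

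The largest rises were in genes that were nearly silent in sham lungs. Gsta1, an alpha-class glutathione transferase, measured 14.3, 17.7, 32.0 and 16.8 CPM in co-exposure libraries, against 0.397, 0, 0 and 0 CPM in sham libraries. Its reads numbered 571 in the co-exposure libraries together and 3 in the sham libraries, a ratio of 199.6 after scaling for depth with a 95% counting interval of 67.9 to 971. Counting intervals of this kind cover counting error only, and a library with no read of a gene could lie anywhere below 3 counts. The closely related Gsta2 also passed, and reads that match both genes were divided between them by Salmon's estimate.

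Fosl1, the AP-1 subunit FRA-1, measured 3.15, 6.52, 5.92 and 3.85 CPM after co-exposure, against 0.397, 0.148, 0 and 0 CPM after sham air (log2 difference 5.02 ± 0.67 (SE), adjusted p = 9.94e-06). Ereg, the EGF receptor ligand epiregulin, measured 4.99, 8.64, 7.19 and 4.27 CPM, against 0.132, 0.593, 0.512 and 0.123 CPM. Every co-exposure library of both genes lay several times above the highest sham library. The same held for Prss22, a serine protease (3.85 ± 1.0 CPM against 0.132 ± 0.11 CPM; SD, n = 4 each), and for Syt8, Pbp2, Sectm1b and Psapl1, which rose by 4.31, 4.12, 4.02 and 3.35 log2 units. Hpx, the heme-binding serum protein hemopexin, and Timp1, an inhibitor of matrix metalloproteinases, rose by 3.47 log2 units each. Timp1 measured 34.8, 72.4, 56.3 and 45.7 CPM, against 3.56 to 5.42 CPM in the sham libraries (4.69 ± 0.80 CPM, SD, n = 4).

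Sprr1a, a small proline-rich protein of the cornified envelope that squamous epithelia build, measured 36.4, 43.2, 47.7 and 32.8 CPM in co-exposed lungs, against 2.65, 1.63, 5.25 and 2.33 CPM in sham lungs. The groups were far apart, and the difference was 3.73 ± 0.40 log2 units (adjusted p = 1.46e-06). Its promoter is shown because it holds a pair of AP-1 motifs. The 250 bases before the RefSeq start on mouse chromosome 3 (GRCm38.p6, chr3:92485882-92486131, minus strand, 5′ to 3′) are given with the matches to TGANTCA in capitals, at 146 and 116 bases before the start.
Sprr1a: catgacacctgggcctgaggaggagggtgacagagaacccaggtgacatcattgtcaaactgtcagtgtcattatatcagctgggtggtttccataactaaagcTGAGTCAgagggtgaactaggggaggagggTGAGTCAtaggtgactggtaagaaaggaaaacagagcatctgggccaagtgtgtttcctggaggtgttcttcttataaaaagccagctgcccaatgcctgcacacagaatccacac
Searched on both strands, TGANTCA occurs in the same window of 7.82% of the 27025 genes with a promoter in that table, and in 7 of 15 genes of the squamous and cornified list. A match describes letters only. Of that list, 9 of 19 genes had enough reads to be tested, and 4 rose (Sprr1a, Sprr2a2, Tgm1 and Ivl) while Ly6d fell. Tgm1, the transglutaminase that cross-links the envelope, averaged 25.1 ± 5.4 CPM, against 3.28 ± 0.84 CPM in sham lungs. Sprr2a2 rested on 12 counts in the co-exposure libraries together and 2 in the sham libraries. Of the risers 2 passed without sham library 4 or without co-exposure library 4, and Ivl passed in 5 of the 8 fits that leave out a library. Ly6d measured 21.5 CPM in sham library 2 and passed in 4 of those fits, with adjusted p = 0.240 without that library and 0.0881 without co-exposure library 3.

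**Figure D3:**
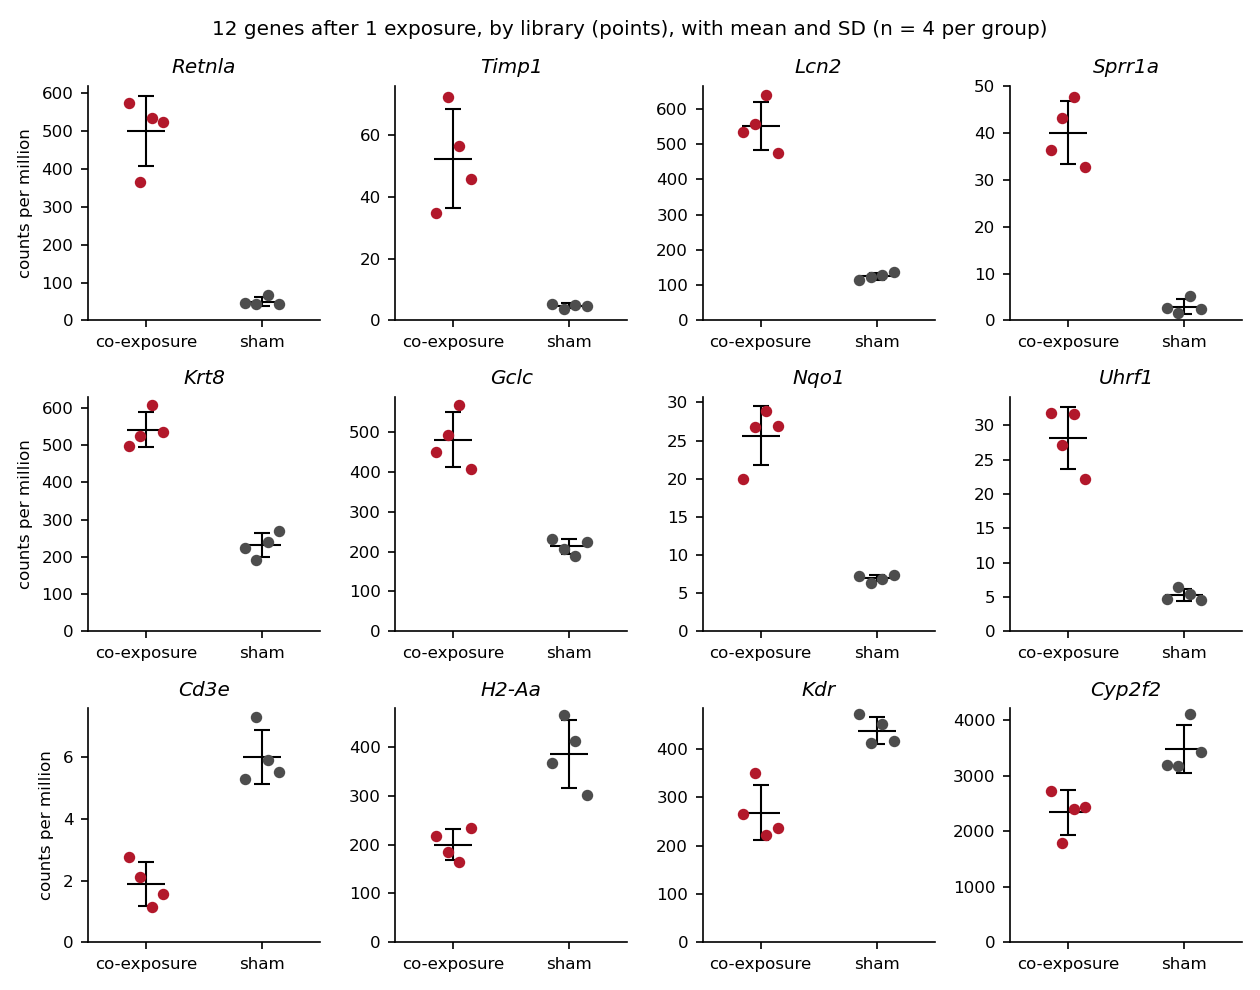
CPM of 12 genes in each library (points), with mean and SD (n = 4 per group), co-exposure left and sham right, on axes that start at 0. The groups do not overlap in any of the 12 panels, which the choice of the largest rises, such as Sprr1a and Timp1, required. Higher after co-exposure are 8 genes, and Cd3e, H2-Aa, Kdr and Cyp2f2 are lower.

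Genes of the antioxidant program rose broadly. Of 22 NRF2 target genes, 17 rose and 1 fell, with a median of 0.51 log2 units. Gclc, the catalytic subunit of glutamate-cysteine ligase, which sets the pace of glutathione synthesis, measured 450, 493, 568 and 407 CPM in co-exposed lungs, against 231, 207, 189 and 225 CPM in sham lungs (1.17 ± 0.11 log2 units, adjusted p = 1.55e-07). Nqo1, which reduces quinones, averaged 25.7 ± 3.9 CPM, against 6.98 ± 0.45 CPM. All co-exposure libraries were above all sham libraries for both genes. The other risers covered cystine uptake (Slc7a11), NADPH supply (G6pdx, Pgd and Taldo1), thioredoxin and peroxiredoxin recycling (Txn1, Txnrd1, Srxn1 and Prdx1), glutathione recycling and peroxidase activity (Gsr and Gpx2) and heme breakdown (Hmox1 and Blvrb). Hmox1 rose by 0.37 ± 0.09 log2 units. Ephx1, the microsomal epoxide hydrolase, fell by 0.51 on the log2 scale, at 152, 123, 135 and 154 CPM against 204, 187, 223 and 193 CPM.

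Txnrd1, the cytosolic thioredoxin reductase, measured 142, 160, 170 and 115 CPM after co-exposure, against 101, 103, 92.2 and 99.4 CPM after sham air. Its promoter is printed as an example of the antioxidant response element, searched as TGACNNNGC on both strands. The match, here on the opposite strand, is in capitals at 92 bases before the RefSeq start (chromosome 10, GRCm38.p6, chr10:82858956-82859205, plus strand).
Txnrd1: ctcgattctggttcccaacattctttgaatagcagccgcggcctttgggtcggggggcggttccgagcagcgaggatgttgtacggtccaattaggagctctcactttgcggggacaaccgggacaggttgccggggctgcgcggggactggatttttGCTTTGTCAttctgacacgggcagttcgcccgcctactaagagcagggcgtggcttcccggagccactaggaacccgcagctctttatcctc
This motif lies in the window of 11.5% of all genes and of 4 of the 18 NRF2 targets with a promoter in the table (Gclm, G6pdx, Txnrd1 and Prdx1). The motif also lies in that of 4 of 21 glutathione transferases, 4 of 21 proteasome genes and 4 of 20 DNA replication genes. For the transitional epithelium, squamous and AP-1 family lists it was 1 of 12, 1 of 15 and 1 of 10 genes, so matches in this window were not confined to NRF2 targets. Whether the motif is more frequent in any list was not tested. Of its matches, 3.59% overlap a match to the AP-1 motif.

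Of 22 glutathione transferases tested, 8 rose and Gstm2 fell, with 2 lower without sham library 2 or co-exposure library 4. Besides Gsta1 the risers were Gsta2, Gsta3, Gsta4, Gstp1, Gsto1, Mgst1 and Mgst3. Mgst3, a microsomal transferase, averaged 61.2 ± 7.8 CPM, against 28.2 ± 1.1 CPM in sham lungs. Metallothioneins, small proteins that bind zinc and copper, rose as well. Mt2 measured 39.3, 80.0, 83.7 and 57.3 CPM in co-exposed lungs, against 11.4, 17.5, 14.3 and 14.5 CPM in sham lungs, and Mt1 rose by 0.94 ± 0.21 log2 units. Of 17 genes of iron and heme handling, 8 rose and 1 fell, with 2 lower without sham library 4, co-exposure library 1 or co-exposure library 2. Fth1, the ferritin heavy chain that stores iron, was among the genes that gained the most reads, at 2331 ± 257 CPM against 1584 ± 36 CPM. Cp, the copper oxidase ceruloplasmin, rose by 0.74 ± 0.10 log2 units. Hfe, which tunes iron sensing, fell by 0.44 on the log2 scale. Prdx6 and Selenbp1, which encode a peroxiredoxin and a selenium-binding protein, averaged 1689 ± 153 and 1505 ± 146 CPM in co-exposed lungs, against 1022 ± 144 and 788 ± 118 CPM in sham lungs. Cyp1a1, the main target of the aryl hydrocarbon receptor, went the other way, at 4.99, 2.42, 4.94 and 5.13 CPM against 40.7, 24.3, 18.6 and 25.4 CPM. The lowest sham library lay above every co-exposure library (log2 difference -2.63 ± 0.66, adjusted p = 0.00751).

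Genes of the transitional epithelium rose almost without exception. Of 16 genes that mark injured or repairing epithelium, 14 rose and 0 fell, with a median of 1.23 log2 units, and the count was 14 without sham library 2. Krt8, the keratin that marks transitional alveolar cells, measured 497, 525, 608 and 536 CPM in co-exposed lungs, against 223, 192, 240 and 269 CPM in sham lungs (1.23 ± 0.13 log2 units, adjusted p = 5.89e-07). The other keratins of the list, Krt18, Krt7 and Krt19, rose by 1.23, 1.23 and 1.34 log2 units. Sfn, the 14-3-3 sigma protein of stressed epithelia, averaged 78.1 ± 9.8 CPM, against 21.6 ± 2.0 CPM. F3, tissue factor, the trigger of coagulation, measured 180, 239, 256 and 206 CPM, against 66.0, 58.1, 60.7 and 83.3 CPM. No library of one group reached into the other for these genes. The EGF receptor ligands Areg and Hbegf rose by 1.26 ± 0.24 and 0.80 ± 0.11 log2 units, and Nrg1, a ligand of related receptors, by 0.89 ± 0.19. Of 15 tight junction genes 5 rose, led by Cldn4 at 21.7 ± 3.0 CPM against 7.51 ± 1.8 CPM, while the AP-1 family had 4 of 12 genes higher (Fosl1, Fosb, Junb and Maff) and Batf2 lower.

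Among genes that define resident epithelial cells few passed. For alveolar type 2 cells 2 of 14 rose (Sftpb and Sftpd) and 1 fell (Etv5), with a median of -0.04. Sftpb lost the call without sham library 1, sham library 2 or co-exposure library 3 (adjusted p up to 0.0613), and Etv5 without co-exposure library 3 (adjusted p = 0.0614), while 2 of the 14 fell without co-exposure library 1. Sftpd, surfactant protein D, averaged 1797 ± 268 CPM in co-exposed lungs, against 1197 ± 102 CPM in sham lungs, whereas Sftpc, the defining surfactant protein of type 2 cells, measured 15075, 13599, 17092 and 18880 CPM against 16417, 15323, 17360 and 17431 CPM. The Sftpc libraries overlapped (adjusted p = 0.863). For type 1 cells 3 of 13 rose, Hopx, Aqp5 and Gprc5a, and the count was 1 without sham library 2, sham library 3 or co-exposure library 3. For club cells 1 of 16 rose, which lost the call without sham library 1 or 2, and 1 fell. The faller was Cyp2f2, the club cell cytochrome that activates naphthalene, at 2725, 1782, 2395 and 2441 CPM against 3198, 3174, 4098 and 3420 CPM (log2 difference -0.57 ± 0.16, adjusted p = 0.0121). Scgb1a1, the main club cell secretoglobin, varied widely among co-exposed lungs, from 27716 to 53073 CPM against 26405 to 35399 CPM, and did not pass (adjusted p = 0.186). Of 18 ciliated cell genes 1 fell, Tppp3, at 228 ± 51 CPM against 337 ± 53 CPM, but 0 fell without sham library 3, sham library 4 or co-exposure library 2 (adjusted p of Tppp3 up to 0.0617) and 2 fell without sham library 2. Of 7 basal cell genes 1 fell, Dapl1, which passed in only 2 of the 8 fits that leave out a library.

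Mucous cell genes rose in 5 of 11 cases and fell in 0. Muc4, a membrane mucin, measured 86.4, 79.7, 86.5 and 82.8 CPM in co-exposed lungs, against 44.7, 28.3, 49.3 and 42.0 CPM in sham lungs. Muc5b, the main gel-forming mucin of the mouse airway, averaged 301 ± 30 CPM against 132 ± 50 CPM, and Agr2, which folds mucins, 17.2 ± 8.0 CPM against 3.63 ± 1.8 CPM. Sham library 2 was the lowest of the 4 sham libraries for Muc5b (61.3 CPM) and Agr2 (0.890 CPM). Without it both still passed, with adjusted p-values of 0.0491 and 0.00917. Spdef, a transcription factor of goblet cells, and Galnt3, which starts O-glycans, completed the group. Muc5ac, the mucin of goblet cell metaplasia, averaged 3.82 ± 0.99 CPM against 3.39 ± 0.44 CPM and did not pass (adjusted p = 0.721).

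Acute-phase genes, best known from the liver, were higher in 10 of 16 cases and lower in 1, with a median of 1.35 log2 units. Lcn2, lipocalin 2, which binds bacterial siderophores, measured 533, 556, 638 and 474 CPM in co-exposed lungs, against 114, 122, 128 and 137 CPM in sham lungs (2.13 ± 0.22 log2 units, adjusted p = 6.30e-07). Saa3, a serum amyloid A made outside the liver, averaged 36.5 ± 9.1 CPM against 7.29 ± 0.94 CPM. Hpx averaged 13.7 ± 2.5 CPM against 1.21 ± 0.60 CPM. In these genes every co-exposure library exceeded every sham library by a wide margin. Fga and Fgg, which encode fibrinogen chains, also rose, by 2.14 ± 0.64 and 2.31 ± 0.44 log2 units at low levels. Outside this list, Alb, the plasma albumin gene of liver, measured 7.22, 7.58, 5.78 and 5.98 CPM against 1.72, 0.742, 1.28 and 1.23 CPM. Pltp, phospholipid transfer protein, fell by 0.96 on the log2 scale.

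Of 15 genes of the IL-6 family and STAT3 pathway, 8 rose and 0 fell; the count was 4 without sham library 3 and 5 without sham library 1, sham library 4 or co-exposure library 2, 3 or 4. The ligand Lif measured 8.67, 14.4, 10.7 and 7.84 CPM in co-exposed lungs, against 3.04, 2.22, 3.07 and 2.33 CPM in sham lungs. Il11, another ligand, and the receptor chains Osmr and Il6ra were among the risers. The feedback inhibitor Socs3, a STAT3 target, averaged 111 ± 9.5 CPM against 41.8 ± 6.5 CPM. Il6 itself had too few reads to be tested.

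Of 21 chemokines tested, 7 rose and 4 fell. The risers comprised the monocyte attractants Ccl2, Ccl7 and Ccl12, the neutrophil attractant Cxcl5, the epithelial chemokine Cxcl17 and the CCR4 ligands Ccl17 and Ccl22. Cxcl17 measured 96.1, 74.7, 115 and 121 CPM in co-exposed lungs, against 39.3, 25.1, 50.3 and 40.2 CPM in sham lungs. Ccl2 reached only 2.23, 3.18, 3.53 and 1.57 CPM, against 0.529, 1.33, 0.641 and 0.614 CPM, and Cxcl5 averaged 2.52 ± 0.97 CPM against 0.438 ± 0.33 CPM. Cxcl1, Cxcl2, Ccl3, Ccl4 and Ccl20 had too few reads to be tested. The fallers were Ccl5, Ccl6, Ccl9 and Cxcl12, and the count of fallers was 1 without sham library 2 or co-exposure library 3 and 2 without sham library 1, sham library 3 or co-exposure library 4. Ccl5, made by T and NK cells, averaged 6.04 ± 0.84 CPM against 12.9 ± 2.4 CPM.

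Retnla had the smallest p-value in the type 2 and alarmin list. It encodes RELM-alpha, a secreted protein of alternatively activated macrophages and of airway epithelium, and measured 575, 366, 535 and 524 CPM in co-exposed lungs, against 44.8, 44.5, 68.2 and 42.1 CPM in sham lungs (3.32 ± 0.21 log2 units, adjusted p = 1.91e-10). Il33, an alarmin released by damaged barrier cells, measured 309, 354, 299 and 241 CPM against 131, 149, 98.3 and 126 CPM. The lowest co-exposure library was well above the highest sham library in both. Of 11 genes tested in this list 5 rose, and Il1rl1, which encodes the receptor for IL-33, fell to 2.20 ± 0.49 CPM, against 4.49 ± 0.36 CPM in sham lungs. Il13, Il5 and Chil4 had too few reads to be tested.

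All 24 DNA replication genes rose, with a median of 1.12 log2 units, in the full comparison and without sham library 2, and 23 or 24 rose when any library was left out. Uhrf1, which maintains DNA methylation behind the fork, measured 31.8, 27.1, 31.6 and 22.2 CPM in co-exposed lungs, against 4.76, 6.53, 5.38 and 4.54 CPM in sham lungs (2.41 ± 0.27 log2 units, adjusted p = 1.86e-06). Mcm7, a subunit of the replicative helicase, measured 47.4, 44.4, 50.4 and 36.9 CPM against 21.4, 24.0, 22.9 and 18.9 CPM. Pcna, the sliding clamp of the polymerases, averaged 111 ± 4.7 CPM against 61.7 ± 4.2 CPM. In each case the groups were separate. The other members called included licensing factors (Cdt1 and Cdc6), nucleotide synthesis (Rrm1, Rrm2 and Tyms), cyclin E genes (Ccne1 and Ccne2) and E2f1.

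Mcm5, another helicase subunit, averaged 29.7 ± 5.5 CPM after co-exposure, against 8.58 ± 2.5 CPM after sham air. Its promoter is printed because it holds the E2F motif TTTGGCGC, on the opposite strand and in capitals, at 149 bases before the RefSeq start (chromosome 8, GRCm38.p6, chr8:75109259-75109508, plus strand).
Mcm5: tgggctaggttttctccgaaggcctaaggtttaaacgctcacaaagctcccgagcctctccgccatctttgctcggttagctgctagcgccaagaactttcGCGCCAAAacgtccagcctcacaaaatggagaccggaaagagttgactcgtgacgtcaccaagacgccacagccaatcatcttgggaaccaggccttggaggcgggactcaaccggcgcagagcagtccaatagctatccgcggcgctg
Searched on both strands, this strict form of the motif was present for 0.485% of all genes and for 3 of the 20 replication genes with a promoter in the table, Mcm5, Mcm6 and Pola1.

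Of 21 mitosis genes, 10 rose and 0 fell, with a median of 0.58 log2 units. Mki67, the proliferation antigen Ki-67, measured 56.2, 40.2, 35.4 and 36.5 CPM in co-exposed lungs, against 17.7, 18.8, 13.6 and 16.8 CPM in sham lungs. Cdk1, the kinase that starts mitosis, averaged 11.7 ± 2.8 CPM against 3.77 ± 0.96 CPM, and Plk1 measured 7.62, 3.18, 3.53 and 3.42 CPM against 1.98, 1.48, 2.18 and 1.96 CPM. Co-exposure library 1 was the highest for all 3 genes. Without it, 4 of the 21 passed. Of 18 p53 targets, 1 rose (Aen) and 4 fell (Trp53inp1, Sesn1, Eda2r and Btg2), and 2 fell without co-exposure library 3.

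Many genes for making and degrading proteins rose. Of 19 genes of ribosome biogenesis 17 rose, with a median of 0.47 log2 units. Gnl3, nucleostemin, measured 31.4, 37.0, 38.5 and 34.3 CPM in co-exposed lungs, against 20.5, 20.3, 21.1 and 19.5 CPM in sham lungs. Myc, a transcription factor known to raise genes of this group, averaged 18.2 ± 2.0 CPM against 7.35 ± 2.2 CPM. Of 26 proteasome genes 23 rose, with a median of 0.38, and none of the 26 had a log2 difference below 0.18. The count was 15 without co-exposure library 3, 15 without sham library 1 and 17 without sham library 2. Psmb5, the chymotrypsin-like catalytic subunit, measured 79.0, 84.6, 96.4 and 87.6 CPM against 55.7, 55.8, 58.9 and 59.9 CPM (0.59 ± 0.10 log2 units, adjusted p = 0.000110). Of 18 genes of the ATF4 and amino acid pathway 7 rose, led by the serine synthesis enzyme Psat1 at 35.8 ± 5.6 CPM against 13.6 ± 1.3 CPM. Of 18 endoplasmic reticulum chaperones 3 rose (P4hb, Manf and Creld2). Of 15 cytosolic heat shock genes 3 rose, and the count was 1 without sham library 2, sham library 3 or co-exposure library 2. The constitutive chaperone Hspa8 was among the genes that gained the most reads, at 2154 ± 137 CPM against 1347 ± 135 CPM. An Ensembl identifier with no symbol in the tables used gained the most, at 4604 ± 259 CPM against 3722 ± 200 CPM, and passed in 4 of the 8 fits that leave out a library. Of 21 cholesterol synthesis genes 6 rose, Sqle and Fdps among them, while Insig1 fell, with 2 lower without co-exposure library 2. Of 23 nuclear genes of the respiratory chain 1 rose (Cox7a2, which passed in 3 of the 8 fits that leave out a library), and 3 rose without sham library 2.

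Lymphocyte genes were lower in co-exposed lungs. Of 21 T and NK cell genes 18 fell and 0 rose, with a median of -1.31 log2 units, and 16 fell without sham library 2. Cd3e, a chain of the T cell receptor complex, measured 2.76, 2.12, 1.13 and 1.57 CPM in co-exposed lungs, against 5.29, 7.27, 5.89 and 5.52 CPM in sham lungs (log2 difference -1.65 ± 0.37, adjusted p = 0.00270). Gzma, a granule protease of killer cells, measured 5.12, 5.30, 3.39 and 5.41 CPM against 14.0, 19.0, 16.1 and 11.8 CPM. Lck, Prf1 and Il7r fell by 1.44, 1.69 and 1.23 on the log2 scale. All sham libraries lay above all co-exposure libraries for these genes, and sham library 2 was the highest. The whole list summed to 65.5 to 92.0 CPM, against 138 to 202 CPM.

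Of 14 B and plasma cell genes 9 fell, and Xbp1, a secretory transcription factor of many cell types, rose by 0.37 ± 0.09 log2 units. Here sham library 2 stood out. Pax5, the B cell master regulator, measured 10.8, 7.27, 7.05 and 7.84 CPM in co-exposed lungs, against 19.2, 39.9, 22.8 and 10.3 CPM in sham lungs, so that the lowest sham library overlapped the co-exposed ones. Without sham library 2, 5 of the 14 fell, Pax5 among those that still passed (adjusted p = 0.0199).

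Of 16 genes for MHC class II presentation and dendritic cells 10 fell and 0 rose, with and without sham library 2, and the median was -0.85. H2-Aa, a class II chain, measured 217, 184, 164 and 233 CPM in co-exposed lungs, against 366, 464, 412 and 301 CPM in sham lungs. Cd74, the invariant chain, was among the genes that lost the most reads, at 596 ± 83 CPM against 1097 ± 201 CPM. The groups were separate in both. H2-Eb1, H2-DMa and Ciita, which switches the class II genes on, fell too.

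Of 24 interferon response genes 14 fell and 1 rose, with a median of -0.65, and 9 fell without sham library 2. Gbp3, a guanylate-binding protein, measured 13.9, 12.7, 14.0 and 18.7 CPM in co-exposed lungs, against 37.8, 38.7, 30.4 and 34.5 CPM in sham lungs. Oas2, an antiviral enzyme, averaged 4.15 ± 0.98 CPM against 10.1 ± 3.1 CPM. Ifit3 was the exception, at 86.3, 86.4, 96.2 and 94.3 CPM against 52.4, 57.7, 50.7 and 60.1 CPM (0.72 ± 0.14 log2 units, adjusted p = 0.000542), while its relatives Ifit1 and Ifit2 fell.

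Of 17 alveolar macrophage genes 4 fell and 0 rose. Siglecf, a lectin of alveolar macrophages and eosinophils, averaged 6.65 ± 1.8 CPM in co-exposed lungs, against 12.4 ± 1.6 CPM in sham lungs (log2 difference -0.89 ± 0.22, adjusted p = 0.00458). Ear2, a ribonuclease with close paralogs that may share its reads, averaged 40.3 ± 6.7 CPM against 65.8 ± 6.0 CPM. Marco, a scavenger receptor, averaged 33.2 ± 6.1 CPM against 21.2 ± 5.3 CPM and did not pass (adjusted p = 0.172). The other fallers, Cidec and Mcoln3, passed in 3 and 5 of the 8 fits that leave out a library. Cidec was high in sham library 2 and lost the call without it (adjusted p = 0.254). Without co-exposure library 3 or 4, 2 of the 17 alveolar macrophage genes fell. Among 17 genes of phagocytic macrophages Spp1, Ctsl and Hmox1 rose, and Fabp5, Apoe and Abcg1 fell, with 5 lower without co-exposure library 2. Spp1, osteopontin, measured 143, 220, 157 and 149 CPM against 64.4, 40.2, 85.7 and 87.5 CPM. Abcg1, a sterol exporter, averaged 53.5 ± 6.5 CPM against 98.6 ± 9.7 CPM. Lyz2, the lysozyme of myeloid and type 2 cells, lost the most reads of all genes called, at 5117 ± 27 CPM against 7406 ± 704 CPM.

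Of 13 monocyte genes 7 fell, with a median of -0.95, and 4 fell without sham library 2 or without co-exposure library 3. Cx3cr1, the fractalkine receptor, measured 7.09, 6.82, 5.50 and 6.55 CPM in co-exposed lungs, against 12.0, 18.1, 12.0 and 15.5 CPM in sham lungs. Csf1r, the receptor that keeps monocytes and macrophages alive, fell by 0.53 on the log2 scale. Neutrophil genes gave no call in the main fit. Of 15 tested, 0 passed there in either direction, 5 had an unadjusted p below 0.05, and DESeq2 called 3 lower. With only the compared groups edgeR called 1 higher and 1 lower, and without sham library 1 it called 1 lower. The list summed to 273 to 461 CPM in co-exposed lungs, against 210 to 342 CPM in sham lungs. S100a8, a calcium-binding granule protein, measured 9.32, 6.97, 3.81 and 4.13 CPM against 6.88, 57.1, 15.1 and 19.0 CPM. Sham library 2 was again the highest, and the groups overlapped (adjusted p = 0.131). Of 16 genes of the inflammasome, IL-1 and TNF, Icam1 rose and Il1b, Ccrl2 and Casp1 fell, of which Ccrl2 remained called without sham library 2.

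Some vascular and stromal genes fell, where 9.09% of all genes tested were lower. Of 18 pan-endothelial genes 6 fell and 0 rose. Kdr, the VEGF receptor 2, measured 265, 350, 222 and 237 CPM in co-exposed lungs, against 472, 413, 451 and 416 CPM in sham lungs (log2 difference -0.71 ± 0.13, adjusted p = 0.000394). Pecam1, CD31, measured 507, 663, 476 and 531 CPM against 833, 768, 803 and 774 CPM. Co-exposure library 2 was the highest of its group for both, yet lower than every sham library. Of 15 genes of capillary subtypes 4 fell, the apelin receptor Aplnr, its ligand Apln, Sema3c and Plvap. Plvap passed in 0 of the 8 fits that leave out a library (adjusted p up to 0.152). Apln and Aplnr averaged 18.8 ± 4.3 and 31.6 ± 5.7 CPM, against 51.3 ± 14 and 69.1 ± 11 CPM. Igfbp3, which binds insulin-like growth factors, measured 25.5, 42.4, 21.6 and 22.7 CPM, against 69.8, 65.1, 67.6 and 71.2 CPM (log2 difference -1.29 ± 0.21, adjusted p = 0.000159).

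Of 15 fibroblast genes 4 fell, Npnt, Dpt, Wnt2 and Fgf10. Wnt2, a ligand for the epithelium, averaged 5.76 ± 2.3 CPM against 12.3 ± 2.8 CPM. Of 17 collagens 3 fell (Col1a2, Col3a1 and Col14a1) and 0 rose, and the count was 1 when sham library 1, sham library 2, co-exposure library 3 or co-exposure library 4 was left out. Of 14 genes of smooth muscle and pericytes 3 fell, and 1 fell without any one of the sham libraries or without co-exposure library 3 or 4. Of 18 genes of matrix turnover 5 rose and 3 fell, and 1 fell without sham library 1 or co-exposure library 3. Besides Timp1 and Spp1 the risers were Adamts4, Adamts15 and Tnc, tenascin C, a matrix protein of wounds, which measured 86.3, 133, 68.7 and 53.9 CPM in co-exposed lungs, against 28.3, 19.0, 28.8 and 29.0 CPM in sham lungs.

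Several smaller groups had members on both sides. Of 19 clock genes 5 rose and 3 fell. Per2 measured 69.3, 56.1, 64.9 and 70.1 CPM in co-exposed lungs, against 21.6, 25.4, 28.4 and 45.2 CPM in sham lungs, Cry1, its partner in repression, averaged 28.6 ± 5.8 CPM against 10.7 ± 0.86 CPM, and Nr1d1, the repressor REV-ERB alpha, averaged 71.1 ± 25 CPM against 185 ± 45 CPM. These are genes whose level turns with the time of day, and the hour of collection was not stated, so its part was not tested. Without sham library 2, 5 rose and 1 fell, and 1 fell also without sham library 3, sham library 4 or co-exposure library 3. Of 14 glucocorticoid targets 3 rose and 2 fell, with Fkbp5 at 66.6 ± 9.4 CPM against 34.2 ± 12 CPM and Dusp1 at 109 ± 16 CPM against 185 ± 41 CPM. The count of risers was 0 without sham library 1 or co-exposure library 3 and 1 without sham library 2 or co-exposure library 4. The count of fallers was 0 without co-exposure library 1 or 3 and 1 without sham library 1, 2 or 4 or co-exposure library 4. Fkbp5 passed in 5 and Dusp1 in 4 of the 8 fits that leave out a library (adjusted p up to 0.0611 and 0.0834). Of 20 genes of coagulation and fibrinolysis 5 rose, F3, Plaur, Anxa2 and S100a10 among them, and 2 fell (Tfpi and Thbd), the last pair being anticoagulants. Neither of these fell without sham library 2, co-exposure library 1 or co-exposure library 3, and 1 fell without sham library 1, sham library 4 or co-exposure library 4. Of 16 ion transport genes 5 rose and 2 fell, but 3 rose without sham library 2, 2 rose without co-exposure library 3, and 1 fell without co-exposure library 3 or 4. Cftr, the apical chloride channel, averaged 11.4 ± 3.2 CPM against 18.5 ± 3.2 CPM, the groups overlapped, and it lost the call without co-exposure library 4 (adjusted p = 0.0538). Slc26a4, the anion exchanger pendrin, rose by 1.16 ± 0.22 log2 units. Ptgs1, cyclooxygenase 1, averaged 145 ± 9.1 CPM against 77.8 ± 10.0 CPM. Txnip, which binds thioredoxin, was among the genes that lost the most reads, at 535 ± 57 CPM against 951 ± 45 CPM. Of 9 erythrocyte genes 0 passed in the main fit and 0 had an unadjusted p below 0.05, while 3 rose in edgeR with only the compared groups. Their summed level was 13622 to 14630 CPM in co-exposed lungs, against 9695 to 12690 CPM in sham lungs.

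Several of the largest falls were in genes that were high in sham library 2. Pck1, the key enzyme of gluconeogenesis, measured 3.55, 1.21, 1.41 and 1.14 CPM in co-exposed lungs, against 23.7, 144, 14.7 and 15.8 CPM in sham lungs, where the 144 belonged to library 2. Thrsp, a regulator of fat synthesis, averaged 3.04 ± 0.72 CPM against 45.8 ± 49 CPM. Every sham library exceeded every co-exposed one, as the rule for naming the largest falls required. Pck1 and Thrsp passed neither without sham library 2 (adjusted p = 0.144 and 0.127) nor without co-exposure library 3 (adjusted p = 0.0820 and 0.0750). Mrap, Slfn4, B3galt2 and Pla2g2d lost the call without sham library 2 too, with adjusted p-values of 0.275, 0.136, 0.144 and 0.215, and each also lost it without co-exposure library 3. Igkv4-55, an immunoglobulin segment, reached 31.6 CPM in sham library 2 and at most 0.794 CPM elsewhere, and without that library it had too few reads to be tested. Ucp1, the uncoupling protein of brown fat, had 0 counts in all co-exposure libraries, against 4.63, 78.0, 0 and 0.245 CPM in sham libraries. The falls that kept the call were Cyp1a1, Sstr4, a somatostatin receptor, at 0.131, 0, 0 and 0.427 CPM against 1.85, 2.67, 0.897 and 2.70 CPM, and Tmem45b (adjusted p = 0.0146, 0.00108 and 0.0399). Fat markers were also higher in the other sham libraries (142 to 185 CPM) than in the co-exposure libraries (40.9 to 84.7 CPM). Whether other tissue was carried into sham library 2, and its part in these values, was not tested beyond leaving the library out.

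The next comparison asks what carbon black added to ozone. Co-exposure and ozone alone, at the same ozone level and duration, gave no gene past the threshold in edgeR (0 of 14887, 0% called), although 2337 genes had an unadjusted p below 0.05 and the smallest adjusted p was 0.138, for Dtd1, named after its value was seen (0.61 log2 units, 95% interval 0.38 to 0.83). Retnla averaged 500 ± 92 CPM after co-exposure and 373 ± 100 CPM after ozone, a difference of 0.42 log2 units with an interval of 0.04 to 0.81. For Krt8 the difference was 0.29 (0.03 to 0.55), for Timp1 0.53 (0.05 to 1.01), for Gclc 0.08 (-0.15 to 0.31) and for Mcm7 0.01 (-0.22 to 0.24). A p that misses the threshold does not show that the exposures act alike, and these intervals give the sizes that the libraries allow. Siglecf averaged 6.65 ± 1.8 CPM after co-exposure and 12.2 ± 3.1 CPM after ozone (difference -0.88, interval -1.32 to -0.44, adjusted p = 0.196), and Txnip 535 ± 57 and 721 ± 128 CPM (-0.43, -0.68 to -0.18).

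That count depended on the libraries and the method of the fit. It stayed at 0 with only the libraries compared, in limma-voom, with other scaling or filters, and with the replicate number as a block. With the 16 libraries of day 1 alone, 259 genes passed, 203 higher and 56 lower after co-exposure, and in DESeq2 with all libraries 19 passed, 10 higher and 9 lower. The median size among the 259 was 0.40 log2 units. Ribosomal protein genes made up 48 of these 259 (of 14344 genes tested), all 48 higher after co-exposure, of 79 such genes tested. In DESeq2 only 2 of the 79 passed, and in the main fit 0 genes of any kind did. Named after its value was seen, Mrc1, the mannose receptor of macrophages, differed by -0.78 ± 0.11 log2 units with day 1 libraries alone (adjusted p = 0.0119), as did Cpm, a membrane carboxypeptidase (-0.58 ± 0.09, adjusted p = 0.0282). Both also passed in DESeq2.

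Ozone alone and carbon black alone were each set against the sham libraries that serve co-exposure, so the differences share those libraries and are given side by side only. For Retnla the log2 difference from sham was 3.32 after co-exposure, 2.90 after ozone and 0.95 after carbon black. For Sprr1a the values were 3.73, 3.55 and -0.32, for Gclc 1.17, 1.09 and -0.05, and for Uhrf1 2.41, 2.30 and 0.82. List medians ran 0.51, 0.42 and 0.06 for NRF2 targets, 1.23, 0.91 and -0.00 for transitional epithelium, 1.12, 1.05 and 0.20 for DNA replication, 0.38, 0.22 and -0.05 for the proteasome, and -1.31, -0.98 and 0.03 for T and NK cells. Neutrophil genes had medians of -1.29 after co-exposure, -0.75 after ozone and 4.01 after carbon black.

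**Figure D4:**
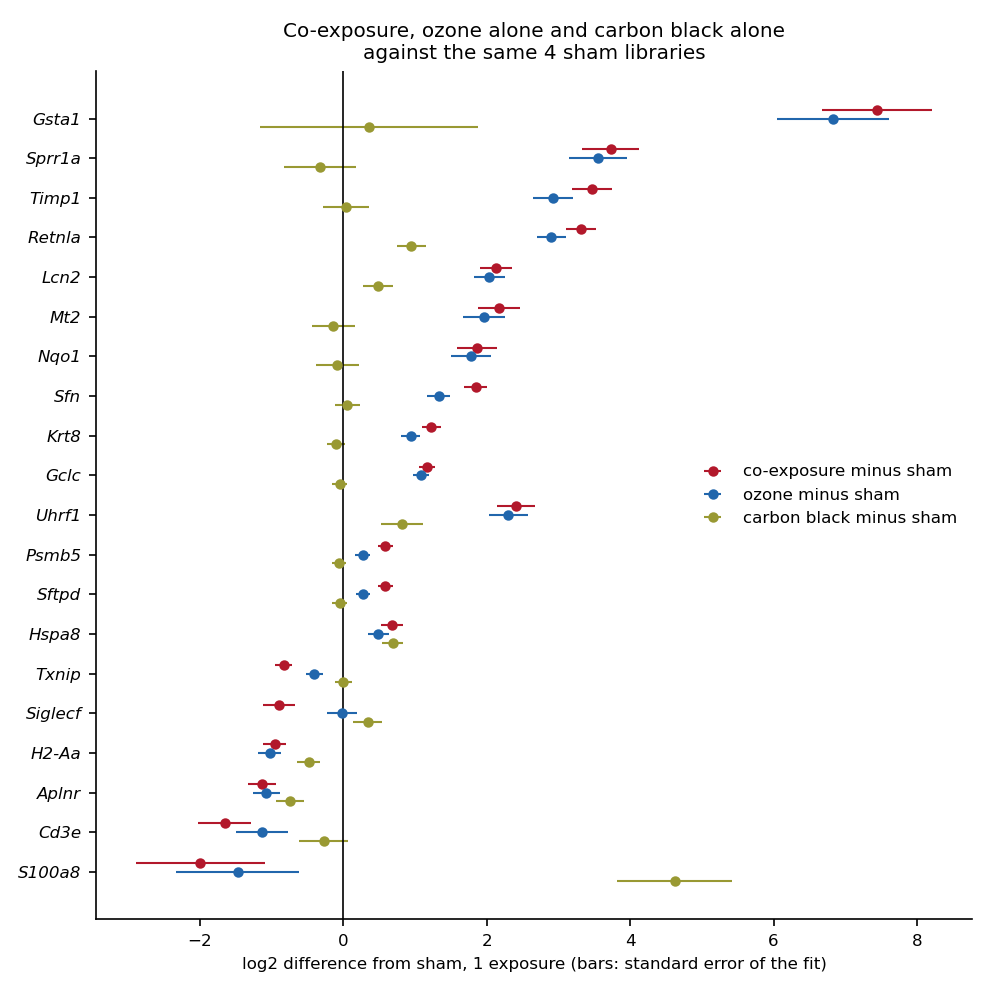
Log2 difference from the same 4 sham libraries for 20 genes after 1 exposure to both agents, to ozone or to carbon black; bars are standard errors of the fit. Co-exposure and ozone points lie close together for most genes, as for Gclc (1.17 and 1.09), carbon black points lie near 0 for most, and S100a8 is at -1.99 after co-exposure and 4.62 after carbon black.

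Set against carbon black alone, co-exposure gave 3849 genes past the threshold (25.9%), 1956 higher (13.1%) and 1893 lower (12.7%), and 2534 without co-exposure library 3. All 26 proteasome genes, 22 of 24 DNA replication genes and 13 of 16 transitional epithelium genes were higher, and the T and NK cell list had 20 of 21 lower. The largest differences upward were those of the genes nearly silent in sham lungs. Gsta1 averaged 20.2 ± 8.0 CPM after co-exposure and 0.144 ± 0.29 CPM after carbon black, and Sprr1a 40.0 ± 6.7 and 2.35 ± 0.55 CPM. The largest downward were neutrophil genes, of which 14 of 15 were lower and 1 higher after co-exposure, with a median of -4.97 log2 units. S100a9 averaged 8.13 ± 4.4 CPM after co-exposure and 866 ± 846 CPM after carbon black (log2 difference -6.73 ± 0.94, adjusted p = 2.91e-05), and Mmp8, the neutrophil collagenase, 1.76 ± 0.40 and 106 ± 130 CPM. The SD among carbon black libraries was close to their mean for S100a9 and above it for Mmp8, which did not pass in limma-voom (adjusted p = 0.0678).

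Many genes called after 1 co-exposure were also called after 4. Of the 1501 genes higher after 1 exposure, 906 (60.4%) were also higher after 4, where 5073 genes passed against separate sham libraries (34.1% of those tested), 2639 of them upward (17.7%, of which 34.3% were shared), and 35 were lower. Of the 1353 genes lower after 1 exposure, 696 (51.4%) were also lower after 4, where 2434 passed downward (16.3%, of which 28.6% were shared), and 28 were higher. The difference between the changes passed for 1522 genes (10.2%), 810 more positive after 4 exposures (5.44%) and 712 more negative (4.78%). Some lists had medians of opposite sign on the 2 days. The median was 1.20 after 4 exposures and -1.29 after 1 for neutrophil genes, 0.25 and -0.38 for collagens, 0.35 and -0.26 for alveolar macrophage genes, and 0.05 and -0.65 for interferon response genes. The difference between the changes passed for 1 of 15 neutrophil genes and 4 of 24 interferon response genes. Neutrophil genes of day 1 had a mean log2 level of 2.63 in sham library 2. It was 1.48 to 1.73 in the other sham libraries and 0.78 to 1.49 after co-exposure. Their summed level was 273 to 461 CPM after co-exposure, against 210 to 342 CPM in sham lungs. Number of exposures and day cannot be told apart.

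Mitosis genes differed between the days. After 4 exposures all 21 were higher than sham, with a median of 3.56 log2 units against 0.58 after 1, and the difference passed for all 21. Mki67 averaged 171 ± 13 CPM (n = 3) in lungs co-exposed 4 times, against 18.2 ± 5.4 CPM in their sham lungs, and 42.1 ± 9.6 CPM (n = 4) in lungs co-exposed once, against 16.7 ± 2.3 CPM in theirs. DNA replication genes had a median of 1.85 after 4 exposures and 1.12 after 1, and the difference passed for 4 of 24. Of 18 pan-endothelial genes 10 were more negative after 4 exposures, of 17 collagens 7 and of 17 alveolar macrophage genes 7 were more positive, and 0 collagens and 1 alveolar macrophage gene were more negative. Retnla reached 2094 ± 461 CPM after 4 exposures against 60.2 ± 6.7 CPM, and its change grew by 1.79 ± 0.29 log2 units (adjusted p = 0.000311).

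Fosl1 and Gsta1 lost most of their difference. Fosl1 averaged 0.607 ± 0.099 CPM after 4 co-exposures against 0.629 ± 0.21 CPM in sham lungs, and Gsta1 1.79 ± 0.90 CPM against 0.544 ± 0.067 CPM. The log2 difference from sham changed by -5.07 ± 1.05 for Fosl1 and by -5.75 ± 1.36 for Gsta1 between the days (adjusted p = 0.00257 and 0.00772). Sprr2a2, Slc47a2 and Ptchd3 moved the other way, and Sprr2a2, a cornified envelope protein of a family of near-identical genes, averaged 23.0 ± 4.4 CPM after 4 co-exposures with 0 in all 3 sham libraries. Acta1, Tnni2 and Actn3, genes of skeletal muscle, also had large positive differences (15.32, 8.38 and 6.89 log2 units), but these moved with sham library 2 of day 1, where Acta1 measured 607 CPM, and passed the threshold neither without it (adjusted p = 0.648, 0.344 and 0.226) nor without co-exposure library 3 of day 4 (adjusted p = 0.843, 0.417 and 0.289). With the replicate number as a block Tnni2 did not pass either (5.54 log2 units, adjusted p = 0.0995). Sprr2a2 lost the call without sham library 1 of day 1, after which its counts in sham lungs were 0 on that day. Slc4a1, Wfdc8 and Alb also had large negative differences. That of Alb was near 0 without sham library 2 of day 4, and it passed neither with the replicate number as a block (-2.34 log2 units, adjusted p = 0.105) nor in limma-voom (adjusted p = 0.348). Slc4a1 did not pass in limma-voom either (adjusted p = 0.226). Both also lost the call in most fits that leave out a library, as without co-exposure library 3 of day 4 (adjusted p = 0.0515 for Alb and 0.0862 for Slc4a1). Slc4a1, the anion exchanger of the red cell membrane, averaged 4.00 ± 1.1 CPM after 4 co-exposures, against 21.4 ± 14 CPM in sham lungs.

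**Figure D5:**
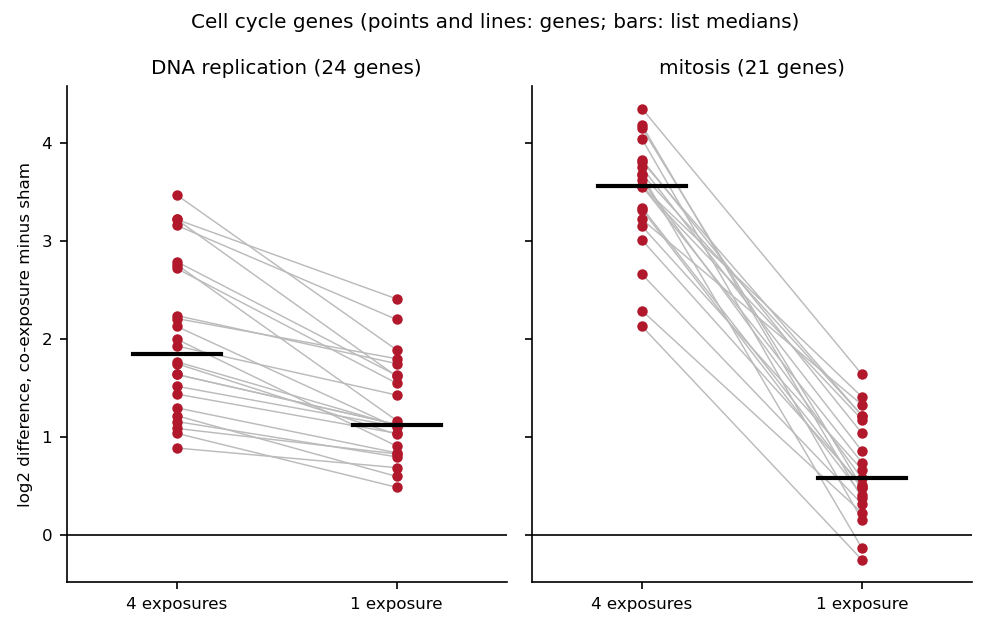
Log2 difference between co-exposure and sham after 4 and after 1 exposures for 24 DNA replication and 21 mitosis genes; points joined by a line are the same gene and black bars are list medians. Replication medians are 1.85 after 4 exposures and 1.12 after 1, and mitosis medians are 3.56 and 0.58.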

How the data were processed

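Lung mRNA was sequenced with a stranded kit as 51-base paired reads. The authors deposited estimated counts per gene, made with Salmon 1.1.0 in mapping mode per the labels' protocols. The submitters' processing notes also name mm10, R 3.6.3 and DESeq2, with no role. Of the deposited values 17.7% were not whole, and estimated counts were rounded before testing. Libraries were grouped by their labels.

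All 28 libraries were fitted together with edgeR 4.0.16 in R 4.3.3 (TMM scaling, filterByExpr, robust quasi-likelihood F test, 1 mean per group, 20 residual degrees of freedom), and p-values were adjusted by Benjamini-Hochberg over all 14887 genes tested of 35880 identifiers, with a threshold of 0.05. CPM used TMM-scaled library sizes. Exact 95% intervals on counts and the floor of 3 counts cover counting error only. Same-numbered co-exposure and sham libraries of day 4 deviated together (r = 0.32, 0.16 and 0.25), against -0.24 to 0 for libraries of unlike number. Deviations from a group mean cancel within the group, so with 3 libraries a group this check cannot establish a pairing. The labels state no pairing. The fit was tested on simulated data. DESeq2 1.42.0, limma 3.58.1 with voom, other scaling, filters, sample sets, a replicate block and leaving out each library were tried as alternatives.

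The members and lists were chosen with earlier results of these data known. Named genes were those with the largest rises and falls past the threshold that changed by at least 1 log2 unit, did not overlap between groups and reached 2 CPM, those with the largest difference in mean CPM, and, for each list, at most 4 members past the threshold, by smallest p. Promoters came from RefSeq (GRCm38.p6), matched by symbol. A few genes that met these rules are not reported here.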

Additional observations from a re-analysis of the deposited data

Results flagged for a closer look

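Among 208 genes chosen for co-exposure against sham, 27 of 416 sets of 4 libraries held a library whose distance from its nearest neighbour took up more of the range of the set than Dixon's critical value for 4 samples, where chance marks about 1 in 20. Sham library 2 accounted for 10 of them. It was high for Cidec (90.6 CPM, the others 23.1 to 23.8), Csf1r (135, the others 103 to 106), Igkv4-55 (31.6, the others 0.491 to 0.794), Il7r (16.8), Myh7 (77.0, the others 34.5 to 38.2), Sectm1b (0.297, the others 0.123 to 0.132, all below the floor of 3 counts) and Slc3a2 (201, the others 191 to 192). It was low for Agr2 (0.890 CPM, the others 4.36 to 4.91), Sfn (18.7, the others 22.2 to 22.8) and Tnc (19.0, the others 28.3 to 29.0).

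Co-exposure library 3 was high for Gpx2 (81.7 CPM, the others 58.6 to 61.1), Pbp2 (5.36, the others 3.85 to 3.94), Prdx6 (1916, the others 1596 to 1642) and Selenbp1 (1723, the others 1417 to 1444), and low for Gzma (3.39, the others 5.12 to 5.41) and Igkv4-55 (0, the others 0.394 to 0.455, near the floor of 3 counts). Co-exposure library 1 was high for Plk1 (7.62 CPM) and low for Ccl22 (12.9 CPM), and co-exposure library 2 was high for Fgf10 (14.5 CPM) and low for Cyp1a1 (2.42 CPM). Sham library 3 was high for Ear2 (74.7 CPM), Npm1 (241 CPM) and Retnla (68.2 CPM) and low for Eda2r (3.33 CPM). Sham library 1 was high for Smtn (66.0 CPM), held the only Gsta1 reads of its group (0.397 CPM), and was low for Casp1 (6.08 CPM).

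The difference between co-exposure and sham itself differed between the days for 1522 genes, by the edgeR test of that difference. On the log2 scale, day 4 minus day 1, it was 15.32 for Acta1, 8.38 for Tnni2, 7.99 for Sprr2a2, 6.89 for Actn3, 5.99 for Slc47a2 and 5.65 for Ptchd3. It was -5.75 for Gsta1, -5.07 for Fosl1, -3.12 for Wfdc8, -2.92 for Alb and -2.91 for Slc4a1.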

How the results depend on the processing

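The 2854 genes called between co-exposure and sham became 1771 to 2967 when 1 library was left out, the lowest without co-exposure library 3, and 2354 to 3463 under the other alternatives. The split was 1508 higher and 1601 lower in DESeq2. Against ozone, 0 genes passed in every fit that left out a library. Of the other alternatives, day 1 libraries alone gave 259, DESeq2 gave 19 and the rest gave 0. The cause was not tested. Leaving out 1 library, the count against carbon black ran from 2534, without co-exposure library 3, to 4127, and for the change between days from 1064, without sham library 2 of day 4, to 1735; under the other alternatives these counts ran from 3212 to 4585 and from 1163 to 1784. Same-numbered libraries of day 1 did not deviate together in every pair (r from -0.07 to 0.10 between co-exposure and sham), whereas those of day 4 did. Neither result settles whether the numbers pair the libraries. With the replicate number as a block, 2880, 0, 3874 and 1500 genes passed in the 4 comparisons, and of the 12 genes named for the change between days only Alb and Tnni2 lost the call. Of the genes named, 51 of 210 against sham, 2 of 12 against carbon black and 6 of 12 for the change between days lost their call or direction under at least 1 alternative. Leaving out 1 library, the change of Alb ran from -3.47 to 0.03, the last without sham library 2 of day 4, and the difference of Sftpc, which was not called, from -0.12 to 0.03, the last without co-exposure library 2. Col1a1 passed with only the compared groups (adjusted p = 0.0110) and S100a8 in DESeq2 (adjusted p = 0.0239). At 6638376 to 8219120 counts a library, 3 counts correspond to 0.365 to 0.452 CPM, below which a gene could not be followed.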
